A study of Mus musculus with 6 samples.

Results

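The genes described here are those of the major histocompatibility complex (MHC) class I pathway: the class I heavy chains of the mouse H2 complex, the light chain B2m, and the genes that cut, carry and load the peptides that class I molecules hold. They were chosen by symbol. Every listed H2-K1, H2-D1, H2-L, H2-Bl, H2-Q, H2-T and H2-M row was taken, together with B2m, Tap1, Tap2, Tapbp, Tapbpl, Psmb8, Psmb9, Psmb10, Psme1, Psme2, Erap1, Nlrc5, Calr, Canx and Pdia3. This gave 46 of the 24421 genes listed, and 32 of the 18413 genes that passed the filter on low values, which asked for a mean of 1 normalized count or more.

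RNA-seq was performed on TurboRFP-positive cells sorted from the olfactory bulb of adult male mice, with 3 control and 3 Sox9 KO libraries and 1 mouse per library. All 6 mice received AAV-GFAP-iCre-P2a-TurboRFP in both bulbs, a virus that carries Cre and the red fluorescent protein TurboRFP under the astrocyte promoter GFAP, and cells were sorted 4 weeks later. Sox9 KO mice were Sox9fl/fl, in which Cre removes the floxed part of the astrocyte transcription factor Sox9. Controls were C57BL/6J mice without a floxed allele (Sox9+/+ in the study's methods), so that both groups carried Cre. The labels give C57BL/6 as the strain of both groups, while the study names a separate line for the floxed mice, and the line of the mice and the deletion of Sox9 cannot be told apart.

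Class I molecules display fragments of a cell's own proteins at its surface to CD8 T cells and natural killer cells. The proteasome cuts the proteins, the transporter TAP carries the peptides into the endoplasmic reticulum, Erap1 trims them, and a loading complex of tapasin, calreticulin, calnexin and Pdia3 fits them onto a heavy chain paired with B2m. Interferons raise most of these genes, partly through the activator Nlrc5, and in the brain microglia and endothelial cells are known to hold more class I than neurons or astrocytes do.

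Promoters of 34 of the 46 genes were in the RefSeq table (build GRCm38.p6), each from 250 bases before to 50 bases after the annotated start. H2-Bl, H2-L, H2-Q1, H2-Q5, H2-Q8, H2-Q9, H2-T10, H2-T24, H2-T9, Nlrc5, Tap2 and Tapbpl had none there. Each promoter was searched on both strands for an NF-kB consensus, for TTTCNNTT (a core of the sites that interferon regulatory factors bind), for TGACG (the core of the X2 box, one of the elements through which Nlrc5 acts) and for CCAAT. The 6 windows below are shown because they belong to the heavy chains with the most reads, to the light chain, to H2-M3 and H2-M2, heavy chains with large differences between the groups, and to the transporter gene that shares its promoter with Psmb9. Capitals mark the matches of all 4 motifs, which can overlap each other and can lie on either strand. H2-K1 is at chr17:34000298-34000597 (minus strand), H2-D1 at chr17:35262844-35263143 (plus), H2-M3 at chr17:37269984-37270283 (plus), H2-M2 at chr17:37483505-37483804 (minus), B2m at chr2:122147437-122147736 (plus) and Tap1 at chr17:34187306-34187605 (plus).
H2-K1: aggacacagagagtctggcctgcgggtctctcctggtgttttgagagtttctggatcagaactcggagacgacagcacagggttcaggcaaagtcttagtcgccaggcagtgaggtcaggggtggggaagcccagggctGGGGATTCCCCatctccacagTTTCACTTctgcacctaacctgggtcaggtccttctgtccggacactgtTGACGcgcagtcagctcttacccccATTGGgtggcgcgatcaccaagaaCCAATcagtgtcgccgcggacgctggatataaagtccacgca
H2-D1: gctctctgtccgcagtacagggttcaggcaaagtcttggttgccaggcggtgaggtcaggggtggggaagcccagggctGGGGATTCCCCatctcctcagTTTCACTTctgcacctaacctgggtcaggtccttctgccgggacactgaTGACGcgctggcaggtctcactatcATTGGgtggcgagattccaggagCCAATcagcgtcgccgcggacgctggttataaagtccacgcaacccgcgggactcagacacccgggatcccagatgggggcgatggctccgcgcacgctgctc
H2-M3: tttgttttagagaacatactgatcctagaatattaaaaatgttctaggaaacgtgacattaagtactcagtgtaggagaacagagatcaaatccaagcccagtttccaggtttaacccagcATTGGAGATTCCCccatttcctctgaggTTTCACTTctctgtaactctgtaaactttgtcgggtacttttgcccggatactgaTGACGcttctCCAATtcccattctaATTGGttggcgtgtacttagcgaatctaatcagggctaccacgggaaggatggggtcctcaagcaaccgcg
H2-M2: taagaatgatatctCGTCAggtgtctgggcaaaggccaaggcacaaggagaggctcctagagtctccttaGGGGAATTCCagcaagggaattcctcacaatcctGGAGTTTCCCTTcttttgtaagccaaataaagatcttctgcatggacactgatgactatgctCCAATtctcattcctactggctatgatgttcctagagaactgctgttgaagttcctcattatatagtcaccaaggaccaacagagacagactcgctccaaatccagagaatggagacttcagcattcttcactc
B2m: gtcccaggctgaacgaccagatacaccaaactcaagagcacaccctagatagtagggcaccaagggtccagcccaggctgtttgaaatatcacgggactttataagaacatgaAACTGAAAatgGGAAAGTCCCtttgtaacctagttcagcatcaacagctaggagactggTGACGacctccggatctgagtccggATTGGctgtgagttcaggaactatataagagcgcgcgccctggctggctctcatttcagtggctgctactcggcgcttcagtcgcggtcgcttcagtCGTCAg
Tap1: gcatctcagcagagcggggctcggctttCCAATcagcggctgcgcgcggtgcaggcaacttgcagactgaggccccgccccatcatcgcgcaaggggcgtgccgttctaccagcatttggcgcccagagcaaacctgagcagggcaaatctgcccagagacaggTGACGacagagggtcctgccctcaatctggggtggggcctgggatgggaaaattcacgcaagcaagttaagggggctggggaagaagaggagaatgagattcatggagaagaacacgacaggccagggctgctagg

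H2-K1 has another start in the table, and the window of the one listed first is shown. In H2-K1, H2-D1 and H2-M3 the matches came in the same order towards the start, an NF-kB match, an interferon-type match and then TGACG. The NF-kB match began 111 bases before the start in H2-K1, 171 bases before it in H2-D1 and 126 bases before it in H2-M3. The interferon-type and TGACG matches began 90 and 41 bases before the start in H2-K1 and 150 and 101 bases before it in H2-D1. The spacing between the matches was thus the same in H2-K1 and H2-D1, and the distances depend on the annotated start used. All 4 kinds of motif were found in B2m, H2-K1, H2-D1, H2-Q4, H2-Q7, H2-T22, H2-M3 and H2-M2. In H2-M2 the interferon-type match overlapped an NF-kB match on the other strand, and its TGACG match lay on the other strand, 236 to 232 bases before the start. In B2m the interferon-type match came first, ahead of the NF-kB match, and both lay on the other strand. Tap1 and Psmb9 start 226 bases apart on opposite strands, so that their windows overlap and the TGACG and CCAAT matches of one are those of the other.

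The NF-kB consensus was found in 9 of the 34 promoters (26.5%), against 5.14% of all genes in the table. TTTCNNTT was found in 18 of 34 (52.9%, against 26.7% of all genes), TGACG in 17 of 34 (50%, against 23% of all genes) and CCAAT in 26 of 34 (76.5%, against 41.1% of all genes). These shares describe letters in a window and were not tested, and the heavy chain genes are related by descent. Psmb8, Psmb10 and the heavy chain H2-M5 had no match to any of the 4 motifs in this window.

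**Figure D1:**
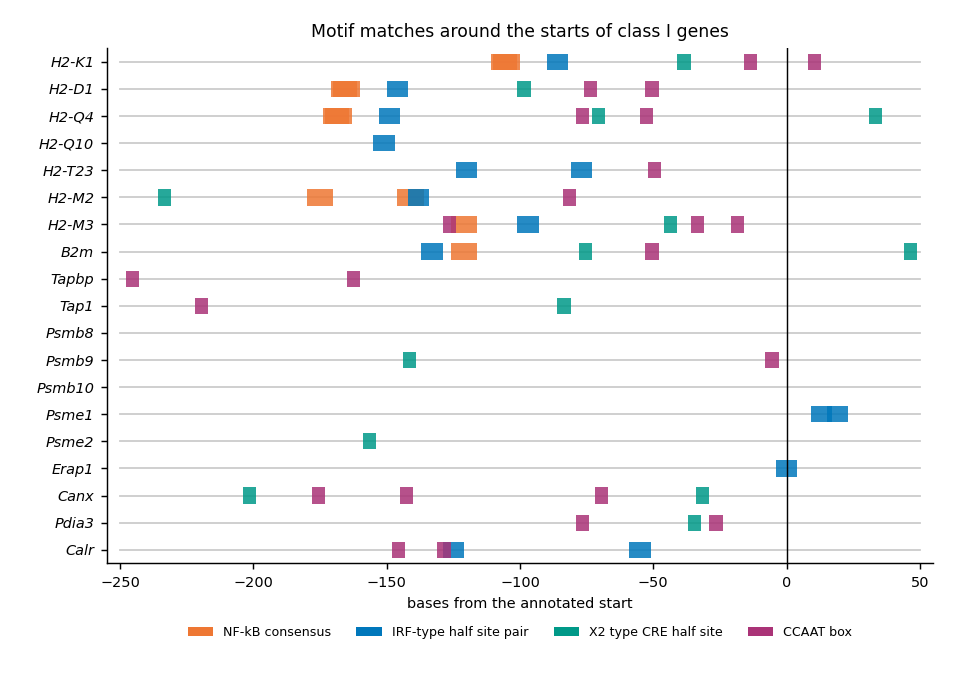
Positions of motif matches in the promoters of the 19 class I pathway genes with a mean of at least 50 normalized counts and an entry in the RefSeq table, with the distance in bases from the annotated start on the x axis (the start is the vertical line) and 1 gene per row. Coloured blocks are matches on either strand, and H2-K1, H2-D1, H2-Q4 and H2-M3 share a run of an NF-kB block followed by an interferon-type block.

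Sox9 itself followed the labels, with 5185, 6562 and 4921 normalized counts in the controls and 52.6, 64.3 and 57.7 in Sox9 KO. Normalized counts are reads divided by 1 size factor per library. The libraries held between 18242129 and 86906527 reads on genes, and 1 read was worth between 0.395 and 1.58 normalized counts. Markers of several cell types also differed between the groups. All 10 astrocyte markers were lower in Sox9 KO, with a summed level of 453190 to 503934 normalized counts in the controls and 31861 to 40648 in Sox9 KO, against the label of olfactory bulb astrocytes. All 10 microglia markers were higher, and their sum was between 136865 and 167267 in the controls and between 477737 and 597109 in Sox9 KO. Among 9 markers of dendritic cells and class II, 7 were higher and none lower. Their sum was between 5032 and 6696 in the controls and between 143579 and 289611 in Sox9 KO. The class II genes Cd74, H2-Aa, H2-Ab1 and H2-Eb1 made up most of that sum in every library. Itgax, and Clec9a and Xcr1 at lower levels, were also called higher, while Flt3 and Ccr7 were not called. The endothelial sum was 2517 to 4076 in the controls and 2078 to 2606 in Sox9 KO, and 2 of its 10 markers were higher and 5 lower. Of 8 border macrophage markers, 2 were higher and 5 lower. Among all genes tested, 22.2% were called higher and 28.8% lower at the thresholds given below, and these shares apply beside each marker count. The counts of higher endothelial and border macrophage markers were near the first share. Markers of neurons, oligodendrocytes and their precursors, olfactory ensheathing cells, mural cells, neutrophils and erythroid cells held no gene that was higher, and of 8 B and plasma cell markers 3 were higher and 1 lower.

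Class I genes were higher in Sox9 KO almost throughout. Of the 32 genes tested, 27 were called higher and 0 lower (adjusted p under 0.05 and 1.5-fold, limma on log2(normalized count + 1) with Benjamini-Hochberg adjustment over all genes tested). Among all 18413 genes tested, 22.2% were called higher and 28.8% lower. The 3 Sox9 KO libraries were all above the 3 controls in 30 of the 32 genes, against 32.4% of all genes tested. H2-Q2 and H2-M10.2, with control means of 0.459 and 0.984, passed the filter only through their Sox9 KO values. Both are counted in the 27 and in the 30, so these counts lean towards higher. With a minimum mean of 10, 25 genes were called higher and 0 lower. The median log2 fold change, Sox9 KO minus control, was 1.78 over the 32 genes and −0.07 over all genes tested. H2-L, H2-T3, H2-M10.6, Tap2 and Canx were not called, and the values of each are given with its role. All members together took 0.461%, 0.482% and 0.615% of the reads on genes in control replicates 1 to 3 and 1.77%, 1.58% and 1.78% in Sox9 KO replicates 1 to 3. In these bulk libraries a larger share of cells that express a gene and more RNA per cell cannot be told apart.

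**Figure D2:**
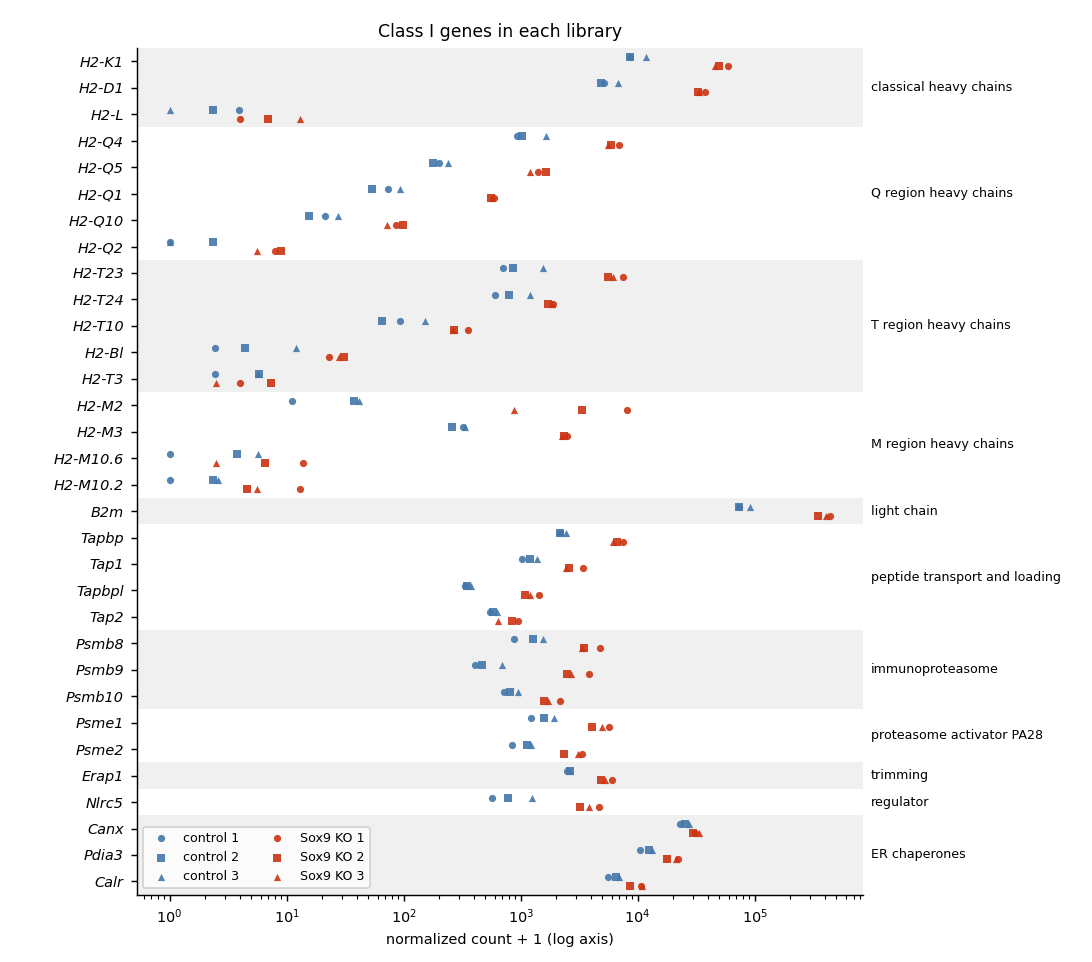
Level of the 32 class I genes tested in each library, as normalized count + 1 on a log axis, with 1 gene per row, ordered by role and then by mean. Blue symbols are the 3 controls and red symbols the 3 Sox9 KO libraries, and the red symbols lie to the right of all blue ones in 30 rows, the exceptions being H2-T3 and H2-M10.6.

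H2-K1 and H2-D1 are the classical heavy chains, which present peptides to CD8 T cells. H2-K1 (chr17:33996017-34000347, minus strand, GENCODE M21 on GRCm38) held 8563, 8527 and 11859.5 normalized counts in the controls and 59392, 49589 and 45650.5 in Sox9 KO. Every Sox9 KO library was above every control, and the lowest Sox9 KO value was well above the highest control. Its mean was 9650.1 ± 1913 in control and 51544 ± 7077 in Sox9 KO (SD, n = 3 each), a 5.34-fold ratio, and its log2 fold change was 2.43 (SE 0.15, adjusted p = 2.7e-07). H2-D1 (chr17:35262730-35267499, plus strand) held 5132, 4863 and 6787 in the controls and 38032, 32779 and 33476 in Sox9 KO. Its log2 fold change was 2.65 (SE 0.13, adjusted p = 6.8e-08). Together H2-K1 and H2-D1 made up 77.8% to 82.2% of all heavy chain normalized counts in the controls and 76.8% to 80.7% in Sox9 KO, ranges that overlap. The ratio of H2-K1 to H2-D1 was 1.67, 1.75 and 1.75 in the controls and 1.56, 1.51 and 1.36 in Sox9 KO, so that it was lower in each Sox9 KO library. H2-L, a further classical locus that is not in GENCODE M21, held 2.92, 1.38 and 0 in the controls and 2.98, 5.92 and 12.2 in Sox9 KO. Its difference missed the threshold (adjusted p = 0.068), and which gene these few reads came from was not tested.

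Heavy chain genes share stretches of sequence with other genes to differing degrees. The sources used here do not say how reads that fit several of them were counted. Of the 50-base stretches in its annotated transcripts, H2-K1 shared 9.63% and H2-D1 12.8% with other genes, while H2-M3 shared 0.576%, H2-M2 1.61% and B2m none. The share was 36.4% in H2-Q4, 36.5% in H2-Q5 and 50.4% in H2-T10, most of the last with H2-T22. Values of single Q and T region genes are therefore uncertain, and the strandedness of the counting is not given either.

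The Q region encodes non-classical heavy chains, and 5 of its 9 listed genes were tested. H2-Q6, H2-Q7, H2-Q8 and H2-Q9, the genes of the Qa-2 family, were under the filter, so that nothing is said of Qa-2 here. All 5 were called higher, with a median log2 fold change of 2.46. H2-Q4 was the most abundant, with 931, 1023 and 1657 normalized counts in the controls and 6934, 5970.0 and 5633 in Sox9 KO, and its log2 fold change was 2.40 (SE 0.19, adjusted p = 1.8e-06). H2-Q5, a polymorphic pseudogene in GENCODE M21, held 200.2, 176 and 238 in the controls and 1413, 1654 and 1193 in Sox9 KO (log2 fold change 2.79, SE 0.16). H2-Q1 held 73.1, 53.0 and 93.0 in the controls and 591, 554 and 574 in Sox9 KO. The 3 Sox9 KO values of H2-Q1 lay close together, and its log2 fold change was 2.99 (SE 0.22, adjusted p = 1.1e-06). H2-Q10, known as a liver-secreted class I protein, held 20.5, 14.5 and 26.8 in the controls and 84.4, 98.7 and 71.4 in Sox9 KO. H2-Q2 was near the limit of detection, with 0, 1.38 and 0 in the controls and 6.95, 7.90 and 4.56 in Sox9 KO, and DESeq2 did not call it. It passed the filter only through its Sox9 KO values.

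In the T region, 4 of the 5 genes tested were called higher, with a median log2 fold change of 1.58 over the 5. H2-T23, which encodes Qa-1, the ligand of the natural killer receptor pair Klrc1 and Klrd1, held 712, 858 and 1556 normalized counts in the controls and 7533, 5538 and 6168 in Sox9 KO. Its mean rose from 1042 ± 451 to 6413 ± 1019.9 (SD, n = 3 each), with a log2 fold change of 2.69 (SE 0.24, adjusted p = 4.8e-06). H2-T24 differed less, with 604, 798 and 1207 in the controls and 1879, 1707 and 1838 in Sox9 KO (log2 fold change 1.11, SE 0.21). H2-T10 held 92.1, 64.7 and 151 in the controls and 351, 268 and 264 in Sox9 KO (log2 fold change 1.58, SE 0.30). H2-Bl, also a polymorphic pseudogene in the annotation, held 1.46, 3.44 and 11.0 in the controls and 21.8, 30.0 and 27.3 in Sox9 KO. Control replicate 3 was the highest control in all 4 of these genes. H2-T3, the thymus leukaemia antigen, was the 1 gene of the region with no separation, at 1.46 to 4.82 in the controls and 1.52 to 6.32 in Sox9 KO (adjusted p = 0.95).

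The M region held the largest single difference. H2-M2 (chr17:37480851-37483552, minus strand), a non-classical heavy chain gene, held 10.2, 36.5 and 41.0 normalized counts in the controls and 8091, 3321 and 875 in Sox9 KO. All 3 Sox9 KO libraries were far above the controls, but they differed 9.25-fold among themselves, the widest spread in Sox9 KO among the class I genes with a mean of at least 100. Its log2 fold change was 6.78 (SE 0.72, adjusted p = 1.5e-05). The ratio of the group means was 140-fold with all libraries, 71.8-fold without Sox9 KO replicate 1 and 195-fold without Sox9 KO replicate 3. H2-M2 took 0.344%, 1.11% and 0.769% of the heavy chain counts other than H2-K1 and H2-D1 in the controls, and 27.5%, 15.4% and 4.62% in Sox9 KO. H2-M3 (chr17:37270220-37274484, plus strand), which presents N-formylated peptides such as those of bacteria and mitochondria, was even across libraries, at 320.0, 258 and 334 in the controls and 2485, 2362 and 2276 in Sox9 KO. Its log2 fold change was 2.97 (SE 0.13, adjusted p = 3.1e-08).

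The M10 genes are known from sensory neurons of the vomeronasal organ, and here they were at or near 0. H2-M10.2, which passed the filter only through its Sox9 KO values, held 0, 1.38 and 1.58 normalized counts in the controls and 11.9, 3.55 and 4.56 in Sox9 KO. It passed the thresholds in limma (adjusted p = 0.041) and not in edgeR (adjusted p = 0.07), and it was not called without control replicate 1 or 2 or without Sox9 KO replicate 1 or 3. H2-M10.6 ranged from 0 to 4.73 in the controls and from 1.52 to 12.9 in Sox9 KO, and was not called (adjusted p = 0.29). The 14 class I genes under the filter were H2-M1, H2-M10.1, H2-M10.3, H2-M10.4, H2-M10.5, H2-M11, H2-M5, H2-M9, H2-Q6, H2-Q7, H2-Q8, H2-Q9, H2-T22 and H2-T9. Of these, 7 had 0 reads in every library, and none had more than 5 reads in any library. H2-Q6, H2-Q7 and H2-T22 shared 35.0%, 26.5% and 53.5% of their 50-base stretches with other genes. The gene that shared most was H2-Q7 for H2-Q6 (13.95%), H2-Q10 for H2-Q7 (14.03%) and H2-T10 for H2-T22 (31.25%). Whether reads of H2-Q6, H2-Q7 and H2-T22 were missed was not tested.

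B2m, the light chain that every class I heavy chain needs to reach the surface, was the most abundant member. It held 73008, 74015 and 90563 normalized counts in the controls and 437812, 347594 and 409346 in Sox9 KO. The controls lay close together and every Sox9 KO library was several times higher. The mean was 79196 ± 9858 in control and 398251 ± 46121 in Sox9 KO (SD, n = 3 each), a 5.03-fold ratio, with a log2 fold change of 2.33 (SE 0.16, adjusted p = 5.4e-07). B2m alone took 0.240% to 0.315% of the reads on genes in the controls and 1.01% to 1.20% in Sox9 KO. Per kb of its longest annotated transcript, its level was 11.0, 11.4 and 9.98 times that of H2-K1 and H2-D1 combined in the controls and 9.29, 8.74 and 10.8 times in Sox9 KO. These ranges overlap, and H2-K1 and H2-D1 summed differed 5.66-fold between the group means against 5.03-fold for B2m.

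TAP is a pair of Tap1 and Tap2, and tapasin (Tapbp) bridges TAP to the heavy chain, while Tapbpl is the related peptide editor TAPBPR. Tapbp held 2170.1, 2177 and 2443 normalized counts in the controls and 7457, 6674 and 6183 in Sox9 KO (log2 fold change 1.58, SE 0.10, adjusted p = 3.3e-07). Tapbpl held 332, 348 and 377 in the controls and 1435, 1089 and 1196 in Sox9 KO (log2 fold change 1.81, SE 0.13, adjusted p = 1.1e-06). For both, the controls differed little and the groups were far apart. Tapbp shared 23.2% of its 50-base stretches with other genes, most of them with Gm19412, against 3.69% for Tapbpl and 11.6% for Tap2. Tap1 held 1030.2, 1196 and 1376 in the controls and 3439.8, 2596 and 2453 in Sox9 KO, with a log2 fold change of 1.23 (SE 0.15, adjusted p = 4e-05). Tap2 held 545, 577 and 624 in the controls and 945, 839.7 and 646 in Sox9 KO. Its groups did not overlap, but the lowest Sox9 KO library was close to the highest control, and its log2 fold change of 0.46 (SE 0.15, adjusted p = 0.022) was under 1.5-fold. Without Sox9 KO replicate 3 it was 0.61 and was called. The change of Tap1 was larger than that of Tap2 on the log2 scale, a difference that was not tested.

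Psmb8, Psmb9 and Psmb10 encode the catalytic subunits of the immunoproteasome, which can take the place of Psmb5, Psmb6 and Psmb7 of the constitutive proteasome. Psmb9 held 409, 471 and 697 normalized counts in the controls and 3833, 2468 and 2721 in Sox9 KO (log2 fold change 2.53, SE 0.21, adjusted p = 2.5e-06). Psmb8 held 878, 1271 and 1540.0 in the controls and 4765, 3494 and 3376 in Sox9 KO (log2 fold change 1.68, SE 0.20, adjusted p = 3.5e-05). Other genes share 11.9% of the 50-base stretches of Psmb8. Psmb10 held 728, 818 and 943 in the controls and 2161, 1571 and 1701 in Sox9 KO (log2 fold change 1.12, SE 0.14, adjusted p = 6.2e-05). In all 3 subunits control replicate 3 was the highest control and Sox9 KO replicate 1 the highest Sox9 KO library.

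None of the 3 constitutive subunits was called. Psmb6 held 1353, 1801 and 1655 normalized counts in the controls and 1568, 1365 and 1779 in Sox9 KO (log2 fold change −0.03, SE 0.14, adjusted p = 0.87). Psmb7 held 2028, 2266 and 2163 in the controls and 2285, 1709.7 and 2162 in Sox9 KO (log2 fold change −0.08, SE 0.12, adjusted p = 0.59). Psmb5 was below every control in each Sox9 KO library, at 868, 1114 and 971 in the controls and 675, 594 and 717 in Sox9 KO, and its log2 fold change of −0.57 (SE 0.13, adjusted p = 0.0033) was under 1.5-fold. Of the 16 other core subunits and assembly factors of the 20S proteasome, none was called, with a median log2 fold change of 0.13.

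A ratio within a library does not depend on how the libraries were scaled. The log2 ratio of Psmb8 to Psmb5 was 0.02, 0.19 and 0.66 in the controls and 2.82, 2.55 and 2.23 in Sox9 KO. For Psmb9 to Psmb6 it was −1.72, −1.93 and −1.25 in the controls and 1.29, 0.85 and 0.61 in Sox9 KO, so that Psmb6 had more counts than Psmb9 in each control and fewer in each Sox9 KO library. For Psmb10 to Psmb7 it was −1.48, −1.47 and −1.20 in the controls and −0.08, −0.12 and −0.35 in Sox9 KO. The differences between the groups were 2.24, 2.55 and 1.20 on the log2 scale. In each of the 3 pairs every Sox9 KO library was above every control, and the exact two-sided permutation p was 0.1, also after Benjamini-Hochberg adjustment over the 3 pairs, which is the smallest p that 3 libraries against 3 can give.

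**Figure D3:**
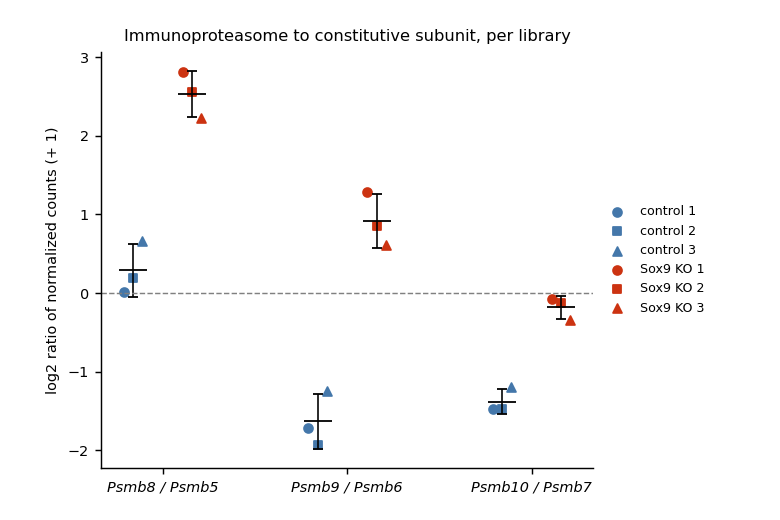
Log2 ratio of each immunoproteasome subunit to the constitutive subunit it replaces, within each library, from normalized counts + 1, with the controls in blue, Sox9 KO in red, and the mean and SD (n = 3) as black bars. The ratios of Sox9 KO lie above those of the controls in all 3 pairs, by 2.24, 2.55 and 1.20 in the mean.

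Psme1 and Psme2 form the PA28 activator, a cap that interferon induces on the proteasome. Psme1 held 1225, 1584 and 1929 normalized counts in the controls and 5693, 4088 and 4922 in Sox9 KO (log2 fold change 1.64, SE 0.17, adjusted p = 1.2e-05). Psme2 held 850.5, 1127 and 1226 in the controls and 3334, 2334 and 3116 in Sox9 KO (log2 fold change 1.45, SE 0.16, adjusted p = 2.6e-05), and 28.3% of its 50-base stretches are shared with its copy Psme2b. Among 3 other activators and regulators of the proteasome, 1 was called higher, Psme4 (PA200), at 3013, 3228 and 3286 in the controls and 6181, 5982 and 6036 in Sox9 KO. Psme3, which forms the nuclear PA28 gamma cap, had a log2 fold change of 0.00 (SE 0.10).

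Erap1, the aminopeptidase that trims peptides to the length class I binds, held 2494, 2632 and 2632 normalized counts in the controls and 5987, 4866 and 5303 in Sox9 KO. The controls were nearly equal, and the log2 fold change was 1.05 (SE 0.10, adjusted p = 5.3e-06). Of its 50-base stretches 10.7% also occur in Cast, whose annotated transcripts overlap it. Of 8 other peptidases that supply or destroy class I peptides, 2 were called higher and 2 lower. These counts are near the shares of all genes tested, 22.2% higher and 28.8% lower. Lnpep, the endosomal relative of Erap1 named IRAP, held 4006, 4140.1 and 4617 in the controls and 10481, 9617 and 9679 in Sox9 KO.

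Nlrc5, the transcriptional activator of class I genes, held 564, 776 and 1252 normalized counts in the controls and 4695, 3208 and 3869 in Sox9 KO. The 3 controls differed 2.22-fold among themselves, with control replicate 3 the highest, and still lay below every Sox9 KO library. The mean was 864 ± 352 in control and 3924 ± 745 in Sox9 KO (SD, n = 3 each), and Nlrc5 had a log2 fold change of 2.24 (SE 0.25, adjusted p = 2.1e-05). Of 21 other regulators of class I and of interferon signalling, 17 were called higher and 1 lower, with a median log2 fold change of 0.98. Among all genes tested, 22.2% were called higher and 28.8% lower. Ifngr1, the ligand-binding chain of the interferon gamma receptor, held 5492, 4281 and 3579.6 in the controls and 20603, 17057 and 15913 in Sox9 KO (log2 fold change 2.02, SE 0.15). The kinase Jak1 had a log2 fold change of 0.80 (SE 0.08).

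Calr, Canx and Pdia3 are general chaperones of the endoplasmic reticulum that class I loading borrows, and their median log2 fold change, 0.66, was the lowest of the roles. Pdia3 held 10489.5, 12429 and 13199 normalized counts in the controls and 22318, 17659.8 and 21432 in Sox9 KO (log2 fold change 0.77, SE 0.12, adjusted p = 0.00029). Calr held 5529.7, 6589 and 6967 in the controls and 10612, 8604 and 10889 in Sox9 KO (log2 fold change 0.66, SE 0.12, adjusted p = 0.0008). Canx held 23115, 25654 and 27223 in the controls and 30979, 29600.3 and 33642 in Sox9 KO, and its log2 fold change of 0.31 (SE 0.10, adjusted p = 0.022) was under 1.5-fold. Groups did not overlap in any of the 3, yet the calls depended on the scaling of the libraries. Quantile normalization, which moved the median of all genes by 0.27 on the log2 scale, gave 0.18 for Pdia3, 0.20 for Calr and −0.33 for Canx, and neither Pdia3 nor Calr was then called. Scaling to the total without the ribosomal precursor Rn45s gave −0.02 for Canx. Of 14 other folding and quality control genes of the endoplasmic reticulum, 5 were called higher and 1 lower, with a median of 0.54. The shares over all genes tested were 22.2% higher and 28.8% lower. Hsp90b1 and Hspa5, the general chaperones GRP94 and BiP, had log2 fold changes of 0.88 (SE 0.15) and 0.70 (SE 0.16).

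**Figure D4:**
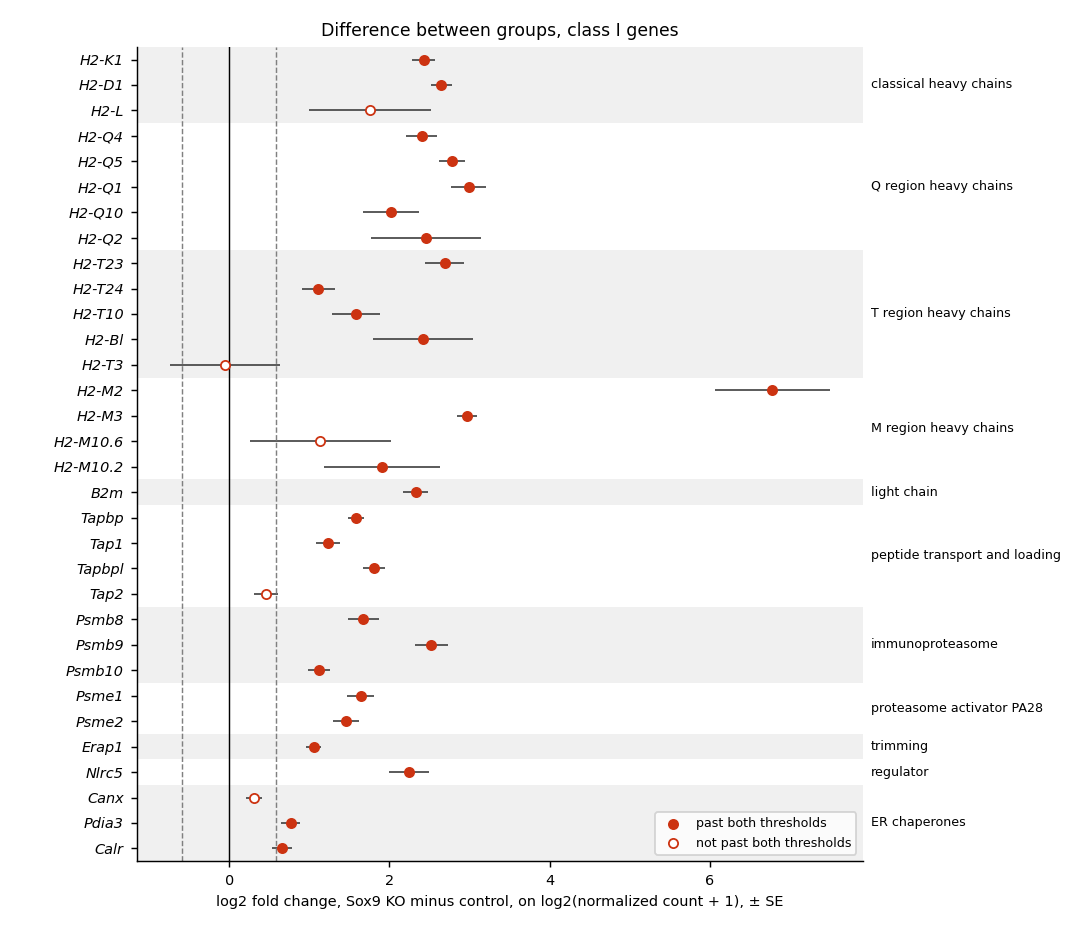
Log2 fold change, Sox9 KO minus control, of the 32 class I genes tested, with the SE of the limma fit as bars and the 1.5-fold thresholds as dashed lines. Filled points passed an adjusted p of 0.05 and 1.5-fold (27 genes), open points did not (5 genes), and H2-M2 stands apart at 6.78 while the ER chaperones lie between 0.31 and 0.77.

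Over all lists of other pathway genes, 33 of the 84 genes tested were called higher and 4 lower, with a median log2 fold change of 0.48. With the libraries scaled to the total without Rn45s, 21 were higher and 8 lower. In the main fit 22.2% of all genes tested were called higher and 28.8% lower, and these shares apply beside the count of each list. Class I-like proteins, which share the fold but not the peptide cargo, had 5 of 11 genes called higher and none lower. The 3 most abundant of them were Mr1, which presents vitamin metabolites (log2 fold change 0.31, not called), the iron regulator Hfe (1.03, called) and the antibody receptor Fcgrt (0.69, called). Of 8 genes in the list of class I receptors and related receptors, 3 were called higher and none lower. Pirb, an inhibitory class I receptor of myeloid cells and neurons, held 615, 548 and 676 normalized counts in the controls and 3547, 2882 and 3101 in Sox9 KO (log2 fold change 2.37, SE 0.12, adjusted p = 7.5e-08). Lilrb4a, a related inhibitory receptor, had a log2 fold change of 1.64 (SE 0.17). Lrp1, which binds calreticulin, held 19644 to 21853 in the controls and 21860.1 to 26321 in Sox9 KO and was not called. Among 8 tested markers of T and NK lymphocytes, 2 were called higher, near the 22.2% of all genes tested. The summed level of the markers was 194 to 378 in the controls and 568 to 744 in Sox9 KO. Cd4 made up most of that sum, at 140.3 to 352 in the controls and 512 to 678 in Sox9 KO, while Cd3e, a chain of the T cell receptor complex, held 5.85 to 13.8 in the controls and 9.11 to 19.9 in Sox9 KO.

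Within each group the class I genes shared an order of libraries. Control replicate 3 was the highest control in 28 of the 32 genes tested, against 34.3% of all genes tested, and control replicate 1 the lowest in 24, against 34.9%. Sox9 KO replicate 1 was the highest Sox9 KO library in 24 of the 32, against 32.8% of all genes. The members of a pathway are not independent of each other in a library, and no test was made. Control replicate 3 was the shallowest library, with 18242129 reads on genes, and had the lowest microglia marker sum of the controls. Its endothelial marker sum was the highest of the controls, 4076 against 2572 and 2517, and so was its neuron marker sum, 25997 against 22969 and 21074. Sox9 KO replicate 1 had the highest dendritic cell and class II sum, 289611 against 143579 and 155189, while Sox9 KO replicate 2 had the highest microglia sum. Class II genes made up most of the first of these sums. Of the other markers in that list, Itgax, Clec9a, Xcr1 and Ccr7 were highest in Sox9 KO replicate 3 and Flt3 in Sox9 KO replicate 1. With control replicate 3 and Sox9 KO replicate 1 both left out, 25 of the 32 genes were called higher and the median log2 fold change was 1.73. The part of depth and of these marker sums in the order was not tested.

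**Figure D5:**
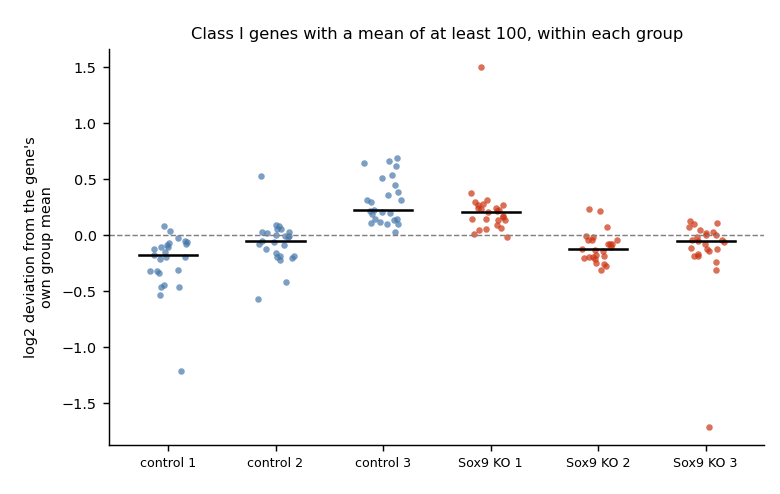
Deviation of each of the 25 class I genes with a mean of at least 100 normalized counts from its own group mean, on log2(normalized count + 1), in each library, with 1 point per gene and the median as a black line. Control replicate 3 lies above its group (median 0.23) and is the highest control in 24 of the 25 genes, and Sox9 KO replicate 1 (median 0.20) is the highest Sox9 KO library in 22.

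Set against the summed level of the 10 microglia markers, the class I genes took other values. Per 1000 normalized counts of those markers, B2m held 436, 535 and 662 in the controls and 751, 582 and 857 in Sox9 KO, so that the groups overlapped. All heavy chains summed held 99.6, 121 and 175 per 1000 in the controls and 217, 174 and 205 in Sox9 KO, which also overlapped. Nlrc5 held 3.37, 5.60 and 9.14 per 1000 in the controls and 8.05, 5.37 and 8.10 in Sox9 KO. Tap1 was lower in every Sox9 KO library on this scale, at 6.16, 8.64 and 10.1 per 1000 in the controls and 5.90, 4.35 and 5.14 in Sox9 KO. The 3 immunoproteasome subunits summed held 12.05, 18.5 and 23.2 per 1000 in the controls and 18.4, 12.6 and 16.3 in Sox9 KO.

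On that scale every Sox9 KO library was above every control in 5 of the 32 genes, H2-D1, H2-M2, H2-M3, H2-Q1 and H2-Q5, against 1.47% of all genes tested. Every Sox9 KO library was below every control in 8 of the 32, against 81.3% of all genes, and the 8 were Tap1, Tap2, Tapbp, Psmb10, Erap1, Calr, Canx and Pdia3. The other 19 overlapped. H2-M2 held 0.0612, 0.264 and 0.299 per 1000 in the controls and 13.9, 5.56 and 1.83 in Sox9 KO. The scale was chosen after the values were seen, it assumes that these 10 markers are equally active in both groups, and the part of microglia in the class I differences was not tested.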

How the data were processed

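RNA of sorted TurboRFP-positive cells (3 control, 3 Sox9 KO libraries, 1 mouse each) was made into libraries from total RNA with NuGEN Trio. The authors mapped reads to mm10 with STAR 2.5.0a, used GenomicAlignments for counting and DESeq2 1.20.0 for normalization. A depth normalization with samtools is also described. Annotation and strand setting were not given in the sources used here. Deposited signal values are named RPM, but in each library 100% of them were whole multiples of 1 step within 0.01 read, that is, reads over 1 size factor. In Sox9 KO replicate 1 the step is near 1 and was set from the full digits. They are called normalized counts here. Of the listed symbols, 27 are dates and 2 occur more than once.

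Genes with a mean of 1 or more were tested in R 4.3.3 with limma 3.58.1, using log2(normalized count + 1) and a variance trend. The pseudocount understates the change of low genes. No block for the replicate number was used. A call needed a Benjamini-Hochberg adjusted p under 0.05 and 1.5-fold, two-sided. The recovered reads were tested with edgeR 4.0.16 and DESeq2 1.42.0 as alternatives. The limma fit, with and without a replicate block, edgeR and DESeq2 were first tested on simulated data. Far fewer genes changed in that simulation than were called here, and the other scalings and filters were not part of it. Values are printed for every library for genes with a mean of at least 100 and for lower genes whose groups did not overlap, and of each list of other genes for at most the 3 with the highest mean. A gene counted in the list of regulators is not reported here by name. Positions, transcripts and shared 50-base stretches come from GENCODE M21 (42 of the 46 genes found) and promoters from RefSeq. Genes and lists were chosen with earlier results of these data known. The division by microglia markers, the counts of highest libraries and the ratio of H2-K1 to H2-D1 were chosen after the values were seen. So was the naming of Cd3e and of single dendritic cell and class II markers.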

Additional observations from a re-analysis of the deposited data

How the results depend on the processing

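Under every alternative run, between 24 and 29 class I genes were called higher and 0 lower, and the median log2 fold change stayed between 1.52 and 2.11. The alternatives were pseudocounts of 0.1 and 5, a minimum mean of 10 and no filter, quantile and total scaling (with and without Rn45s), no variance trend, a replicate block, edgeR, DESeq2, other thresholds and each library left out. A median is given for each setting except the thresholds, which do not move it. H2-M10.2 lost its call under 11 alternatives. Calr lost it with quantile normalization, both total scalings and without control replicate 1 (0.56), Pdia3 with the 3 scalings, and H2-Q2 in DESeq2 and without control replicate 3 and Sox9 KO replicate 1, a pair chosen after the values were seen. H2-L was called with quantile normalization and without control replicate 1, and Tap2 with quantile normalization and without Sox9 KO replicate 3. Canx turned to −0.33 with quantile normalization and to −0.016 with scaling to the total without Rn45s. H2-T3 turned to 0.70 with quantile normalization, 0.11 in edgeR and 0.028 in DESeq2, and ranged from −0.46 to 0.31 with single libraries left out. Of the other genes of the pathway, 33 were higher and 4 lower, against 21 and 8 with the total without Rn45s, 7 lower with the total, 2 lower with quantile normalization and 7 lower without a fold threshold. The ratios of immunoproteasome to constitutive subunits kept their direction throughout, between 1.15 and 2.75 over the 3 pairs with single libraries left out. The cause of these changes was not tested. Same-numbered libraries did not deviate together (r = −0.051, −0.013 and −0.013), and no library correlated best with its own number. With the replicate block 26 class I genes were higher.

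Depth limits the low genes: 5 of the 32 tested had means under 10, where 1 read was worth up to 1.58 normalized counts. With 3 mice a group, the spread within a group is poorly known. Reads shared between heavy chain genes, the unstated strand setting and the make-up of the sorted cells limit what the value of a single gene says, and protein was not measured here.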
